A study of Mus musculus with 15 samples.

Results

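The genes described here encode the nuclear subunits and assembly factors of respiratory complex I, the NADH:ubiquinone oxidoreductase of the inner mitochondrial membrane. They were chosen by name: protein-coding mouse genes whose symbol is Ndufa, Ndufb, Ndufc, Ndufs, Ndufv or Ndufaf followed by a number, plus Ndufab1. The rule found 46 genes among the 37991 gene identifiers of the count table, and 4 pseudogene copies (Ndufab1-ps, Ndufs6b, Ndufb4c and Ndufa11b) were left out. By role the 46 comprise 7 core catalytic subunits, 10 accessory subunits of the matrix arm, 19 accessory subunits of the membrane arm, 8 assembly factors, and Ndufa4 and Ndufa4l2, which carry the family name but are not counted as stable parts of the complex.

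The series profiled messenger RNA in adipose tissue of C57BL/6 mice that lack interleukin-33 (Il33), a cytokine of stromal cells that signals through the receptor ST2. Inguinal white fat at postnatal day 24 came from IL-33 knockout mice (3 libraries) and wild-type mice (4 libraries). Brown fat at postnatal day 0.5 came from mice labelled IL-33 knockout (4 libraries) and wild type (4 libraries). The labels say neither how the Il33 allele was made nor whether the libraries came from separate animals, so p-values measure only the spread between these libraries. Depot and age differ together and cannot be told apart.

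Complex I takes electrons from NADH, passes them along a chain of iron-sulfur clusters in its matrix arm to ubiquinone, and pumps protons through its membrane arm. The core subunits of the matrix arm, which carry the flavin and the iron-sulfur clusters, are encoded in the nucleus, and the proton-pumping core subunits are encoded in mitochondrial DNA. The accessory subunits surround this core, and assembly factors help to build the enzyme without remaining in it. The roles given for single genes rest largely on the human and bovine enzymes. Brown and beige adipocytes are rich in mitochondria, and their respiratory chain sustains the proton gradient that uncoupling protein 1 dissipates as heat.

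Total counts ran from 26059635 to 53923009 per library. Levels are CPM, counts scaled to the effective size (TMM) of each of the 15 libraries, and a gene is called where its adjusted p over all genes tested is below 0.05 by edgeR's quasi-likelihood test. Il33 stood at 0.346, 0.471 and 0.0791 CPM in inguinal knockout libraries, against a mean of 3.86 ± 0.524 CPM in inguinal wild-type libraries (SD, n = 4), an edgeR log2 fold change of -3.73 (adjusted p = 1.25e-05). In brown fat it averaged 1.04 ± 0.641 CPM in labelled knockout libraries and 2.19 ± 0.691 CPM in wild-type libraries (SD, n = 4 each), with an edgeR log2 fold change of -1.08 and an adjusted p of 0.229. Its unadjusted p by edgeR was below 0.05, which 18.5% of all genes tested in brown fat reached. Labelled knockout replicate 2 lay within the wild-type range. The knockout label of the brown libraries is therefore used here as given and was not settled by Il33. Brown labelled knockout replicate 1 stood apart from the 3 other libraries of its group: the chi-square of gene counts per degree of freedom was 149 to 217 in its pairs and 22.5 to 52.5 among the others. All 46 members had at least 68 counts in every library and passed the filter on low counts in each comparison. The 37 identifiers of the mitochondrial genome, which include the 7 mitochondrially encoded complex I subunits, were listed at 0 counts in every library and are not analysed here.

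Summed over the 46 genes, complex I took 0.863 ± 0.0486% of all counts in inguinal knockout libraries (SD, n = 3) and 0.799 ± 0.0187% in inguinal wild-type libraries (SD, n = 4). In brown fat the sum was 1.25 ± 0.0278% in labelled knockout libraries and 1.26 ± 0.0982% in wild-type libraries (SD, n = 4 each). The lowest inguinal knockout library, at 0.829%, lay above the highest inguinal wild-type library, at 0.815%, and in brown fat the groups overlapped. Per kilobase of transcript, the subunits were far more abundant than their assembly factors. In wild-type inguinal fat the subunits ranged from 61.8 CPM per kb for Ndufb4 to 640 CPM per kb for Ndufb9, both of the membrane arm, while the assembly factors ranged from 8.62 for Ndufaf8 to 27.7 for Ndufaf1. Ndufa4, now counted as a subunit of complex IV, had the highest level of all 46 in that group, at 1312 CPM per kb. Its paralogue Ndufa4l2, known as a hypoxia-induced gene, stood at 10.2 CPM per kb there.

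IL-33 knockout inguinal fat carried more mRNA for the catalytic core of complex I and for the accessory subunits with the longest coding sequences. Most of the other accessory subunits did not pass the test. Of the 46 genes, 12 were higher and 0 lower in knockout than in wild-type libraries by edgeR. Over all 15710 genes tested, 28.6% were called, 15.3% higher and 13.3% lower, so that the share of complex I genes called, 26.1%, was close to the background while the direction was one-sided. At an unadjusted p below 0.05, 15 members were higher and 0 lower, against 39.9% of all genes. DESeq2 gave 14 higher and 0 lower (30.9% of all genes called), and limma-voom 13 higher and 0 lower (25.8%). The groups did not overlap for 14 members higher and 3 lower, against 2882 higher and 2910 lower of all 15710 genes. Groups apart were thus common over all genes, and among the members mostly in the higher direction. The median log2 fold change was 0.13 for the 46 members and -0.02 for all genes tested. The median of the members was 0.04 without knockout replicate 2, 0.19 without knockout replicate 4 and 0.06 under upper-quartile scaling, each time with more members called higher than lower.

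Of the 7 core catalytic subunits 5 rose, with a median log2 fold change of 0.39, and all 7 values were positive. Both the share called and the median were the highest of the role groups. Ndufs1, the largest subunit and the carrier of several iron-sulfur clusters, had 615, 654 and 526 CPM in knockout libraries, against 407, 402, 386 and 375 CPM in wild-type libraries. All 3 knockout libraries lay above all 4 wild-type libraries, and the edgeR log2 fold change was 0.62 ± 0.10 (SE, adjusted p = 0.000405). Ndufv1, which binds NADH and the flavin that accepts its electrons, had 645, 618 and 617 CPM in knockout libraries, against 452, 417, 448 and 356 CPM in wild-type libraries. The groups were again apart, with a log2 fold change of 0.60 ± 0.10 (SE, edgeR adjusted p = 0.000667). Ndufs3, a subunit of the matrix arm, had 215, 195 and 189 CPM in knockout libraries, against 166, 171, 169 and 159 CPM in wild-type libraries, a log2 fold change of 0.28. It was called and its groups did not overlap.

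Ndufs8, another iron-sulfur subunit, rose with a log2 fold change of 0.39. The 2 core subunits that were not called also carry iron-sulfur clusters. Ndufs7 had 153, 110 and 133 CPM in knockout libraries, against 125, 95.4, 109 and 94.4 CPM in wild-type libraries, with overlapping groups, a log2 fold change of 0.33 and an edgeR adjusted p of 0.0602. Ndufv2 had a log2 fold change of 0.17 (edgeR adjusted p = 0.212).

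**Figure D1:**
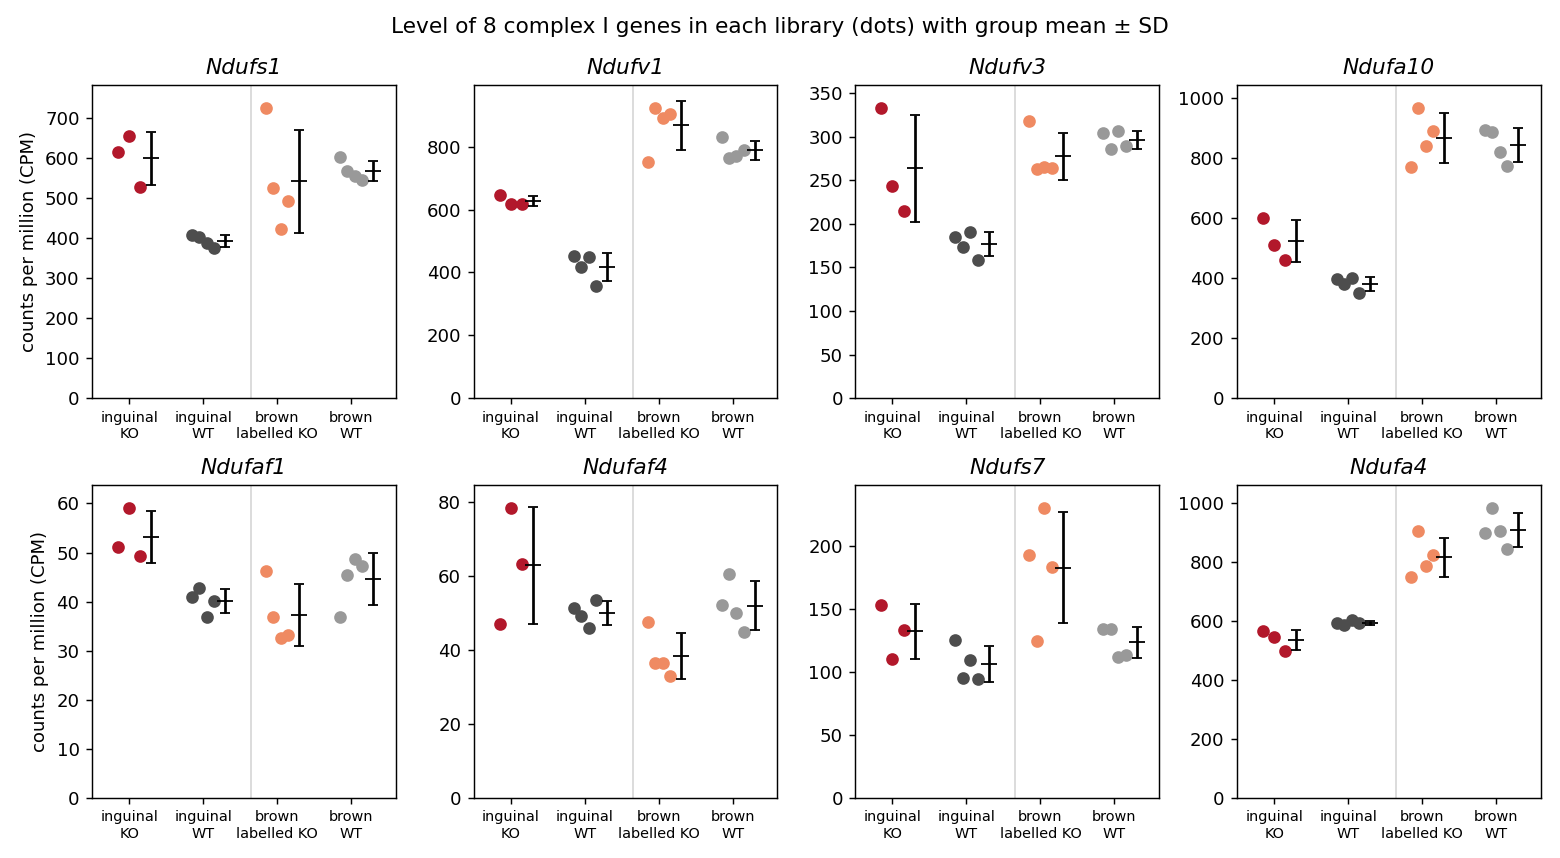
Levels of 8 complex I genes in every library, in CPM on linear axes that start at 0, with the group mean ± SD beside the dots. Ndufs1, Ndufv1, Ndufv3, Ndufa10 and Ndufaf1 sit higher in all 3 inguinal knockout libraries than in all 4 inguinal wild-type libraries, while in brown fat the groups overlap for all 8 genes. Of all 15710 genes tested in inguinal fat, 2882 were likewise higher in every knockout library.

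Among the accessory subunits of the matrix arm, 3 of 10 rose. Ndufv3, which sits beside the NADH-oxidising subunits, had 333, 243 and 215 CPM in knockout libraries, against 185, 173, 191 and 159 CPM in wild-type libraries. The groups did not overlap, but knockout replicate 2 stood well above the other two, and the log2 fold change was 0.59 ± 0.13 (SE, edgeR adjusted p = 0.00567). Ndufa9, a nucleotide-binding subunit of the arm, had 410, 411 and 395 CPM in knockout libraries, against 335, 327, 329 and 313 CPM in wild-type libraries, which gave a log2 fold change of 0.33. Ndufa6, which anchors the acyl carrier protein to the arm, was called with a log2 fold change of 0.27. The other 7 members of this group had log2 fold changes between -0.14 (Ndufa5) and 0.20 (Ndufs6), none of them called.

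Of the 19 accessory subunits of the membrane arm, 2 rose and none was called lower. The median log2 fold change was 0.08 for them and 0.06 for the accessory subunits of the matrix arm. Ndufa10, a subunit with a nucleoside kinase fold, had 598, 510 and 459 CPM in knockout libraries, against 395, 378, 400 and 349 CPM in wild-type libraries. No knockout library fell into the wild-type range, and the log2 fold change was 0.47 ± 0.11 (SE, edgeR adjusted p = 0.00455). Ndufb4 was called with a log2 fold change of 0.29. The other 17 lay between -0.17 for Ndufa3 and 0.25 for Ndufb6. Ndufb11, for example, had 212, 187 and 195 CPM in knockout libraries, against 184, 176, 191 and 179 CPM in wild-type libraries, with overlapping groups and a log2 fold change of 0.13 (edgeR adjusted p = 0.277).

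Of the 8 assembly factors, Ndufaf1 and Ndufaf7 rose. Ndufaf1, a member of the intermediate assembly complex that also holds Acad9 and Ecsit, had 51.1, 59.1 and 49.2 CPM in knockout libraries, against 41.0, 42.7, 36.9 and 40.2 CPM in wild-type libraries, a log2 fold change of 0.41 ± 0.09 (SE, edgeR adjusted p = 0.00465). Ndufaf7, a methyltransferase of complex I assembly, had 53.2, 48.0 and 46.9 CPM in knockout libraries, against 41.6, 40.5, 37.2 and 43.6 CPM in wild-type libraries, a log2 fold change of 0.29. Both genes had groups that did not overlap. Ndufaf4, an assembly factor that acts with Ndufaf3, had 47.0, 78.5 and 63.3 CPM in knockout libraries, against 51.4, 49.3, 46 and 53.5 CPM in wild-type libraries. Knockout replicate 2 fell inside the wild-type range, and the log2 fold change of 0.34 did not pass the threshold (edgeR adjusted p = 0.0752). Without that library Ndufaf4 was called with a log2 fold change of 0.51.

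Ndufa4 and Ndufa4l2 both had negative log2 fold changes that were not called. Ndufa4 had 564, 543 and 498 CPM in knockout libraries, against 592, 586, 602 and 591 CPM in wild-type libraries. The groups did not overlap, and the log2 fold change was -0.13 (edgeR adjusted p = 0.279). Ndufa4l2 had 9.37, 6.46 and 6.94 CPM in knockout libraries, against 9.74, 10.5, 10.3 and 7.59 CPM in wild-type libraries, with overlapping groups and a log2 fold change of -0.31 (edgeR adjusted p = 0.171).

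The calls of Ndufs1, Ndufv1, Ndufv3, Ndufa10, Ndufaf1 and Ndufa9 were kept without any single inguinal library and under every other setting tried. Ndufs3, Ndufa6, Ndufb4 and Ndufaf7 lost their calls under upper-quartile scaling, in a fit of all 4 groups, with a replicate block, and without single libraries. Ndufs8 lost its call without wild-type replicate 4 (adjusted p = 0.0505). Without knockout replicate 2, Ndufa3 and Ndufa4l2 were called lower, with log2 fold changes of -0.32 and -0.49.

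**Figure D2:**
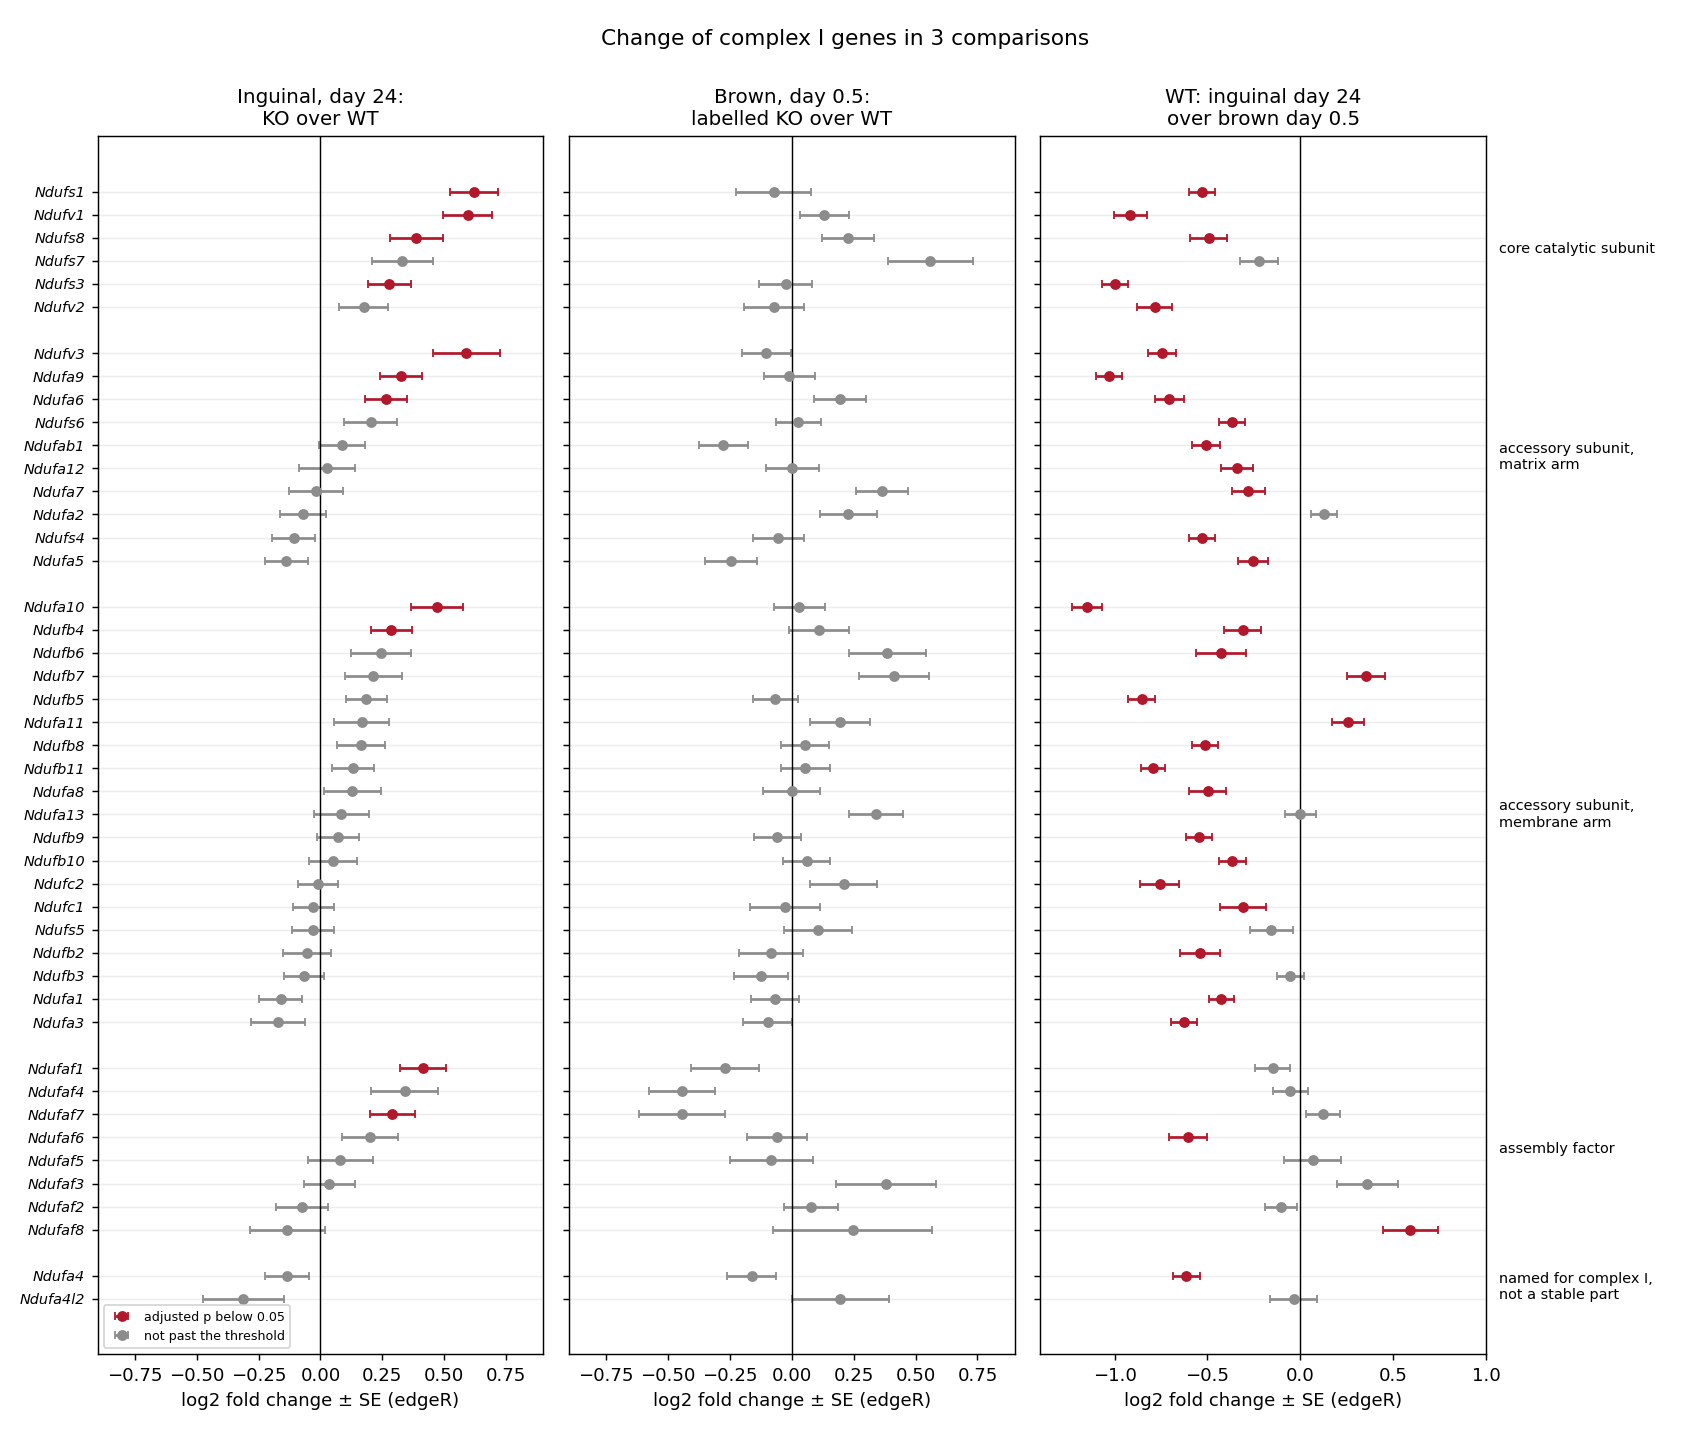
Log2 fold changes with standard errors (edgeR) of 45 of the 46 genes, one row per gene, grouped by role. The left panel sets inguinal knockout over wild type, the middle panel brown labelled knockout over wild type, and the right panel wild-type inguinal over wild-type brown fat; red points have an adjusted p below 0.05, which 11, 0 and 33 of the genes shown reached in the 3 panels.

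Some markers of other cells in the tissue also differed between the inguinal groups, where 15.3% of all genes tested were called higher and 13.3% lower. Summed over 8 brown or beige adipocyte markers, the level ran from 2771 to 3535 CPM in knockout libraries and from 1352 to 2080 CPM in wild-type libraries, and 5 of the 8 were called higher, among them Ucp1 with a log2 fold change of 1.24. Summed over 12 skeletal muscle markers, it ran from 42.3 to 49.1 CPM in knockout libraries and from 138 to 377 CPM in wild-type libraries, with 9 of the 12 called lower. The 6 B cell markers summed to between 4.53 and 12.8 CPM in knockout libraries and between 11.3 and 19.4 CPM in wild-type libraries, and 2 were called lower. The 6 general adipocyte markers gave 16173 to 17305 CPM in knockout libraries and 16516 to 18549 CPM in wild-type libraries, and 1 was called higher. All 4 proliferation markers, 2 of 4 endothelial markers and 1 of 4 progenitor markers were called lower. The part of these cell types in the complex I values was not tested, and in bulk tissue more cells of a type and more RNA per cell cannot be told apart.

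Some other genes of the respiratory chain were also called in the inguinal comparison, not all in the same direction. The counts below stand beside 15.3% called higher and 13.3% called lower over all 15710 genes tested. Of 12 further assembly genes, 5 rose and none was called lower: Aifm1 (log2 fold change 0.66), Ecsit (0.54), Tmem186 (0.49), Foxred1 (0.48) and Acad9 (0.27). All 4 subunits of complex II (succinate dehydrogenase) rose, with Sdha at 0.58. In complex III, 4 of 9 rose, led by the core proteins Uqcrc1 (0.62) and Uqcrc2 (0.56). In complex IV, Cox7a1 (0.56) and Cox8b (0.58) rose and Cox4i2 (-0.71) fell, of 14. Cox8b is also among the brown or beige adipocyte markers counted above. In complex V, the ATP synthase, Atp5a1, Atp5b and Atp5d rose and Atp5g3, Atp5j and Atp5l fell, of 15. Of 9 genes that supply NADH or feed ubiquinone beside complex I, 5 rose: Gpd2 (1.41), the mitochondrial glycerol-3-phosphate dehydrogenase, Prodh (1.38), Etfdh (0.83), Dld (0.53) and Mdh2 (0.49). Of 11 regulators of mitochondrial gene expression, Esrra, Esrrg and Gabpa rose and Gabpb1 fell.

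Because members of the core moved together, the 250 bases upstream of each start site were searched for motifs of regulators of respiratory genes, on both strands, in RefSeq sequences of GRCm38.p6. An entry was found for 40 of the 46 members and for 10 of the 12 called ones. None was found for Ndufs1, so the shares of called members leave out the core subunit with the smallest p. The NRF1 motif (GCGC, any base, then TGCGC) was present in 17.5% of the 40 members, in 10% of the 10 called ones and in 3.86% of all 27025 promoters. The ETS motif of GABP, CCGGAAG, was present in 5 of the 40 members, 20% of called members and 7.05% of all promoters. The ERR motif AAGGTCA was present in 7.5% of members, 10% of called members and 4.05% of all promoters. The YY1 motif AANATGGC was present in 5 of the 40 members, 10% of called members and 3.93% of all promoters, and the SP1 motif GGGCGG in 47.5% of members, 50% of called members and 32.9% of all promoters. The GABP and YY1 motifs were thus each present in 12.5% of members. Among the 30 members with an entry that were not called, 20% held the NRF1 motif and 10% the GABP motif. The ERR motif was in 6.67% of those 30, the YY1 motif in 13.3% and the SP1 motif in 46.7%. With 10 called members, 1 promoter is 10%. The 4 called members that held one of the first 4 motifs are shown with the motif in capitals (reverse-strand matches included), after Ndufv1, which had the smallest p among called members with an entry and held none of these 4. All 5 lie on the minus strand and are written in the direction of transcription, ending at the base before the start site.
Ndufv1, chr19:4012756-4013005: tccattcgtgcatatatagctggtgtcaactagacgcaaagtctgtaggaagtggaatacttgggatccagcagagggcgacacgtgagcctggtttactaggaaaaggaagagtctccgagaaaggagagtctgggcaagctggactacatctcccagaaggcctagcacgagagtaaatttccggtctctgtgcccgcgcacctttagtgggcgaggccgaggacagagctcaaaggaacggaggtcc
Ndufaf1, chr2:119662835-119663084: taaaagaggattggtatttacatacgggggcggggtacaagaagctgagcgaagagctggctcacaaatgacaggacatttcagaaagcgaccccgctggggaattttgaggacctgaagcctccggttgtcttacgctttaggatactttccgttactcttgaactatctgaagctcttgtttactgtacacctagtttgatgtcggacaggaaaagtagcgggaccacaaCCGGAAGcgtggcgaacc
Ndufs8, chr19:3912775-3913024: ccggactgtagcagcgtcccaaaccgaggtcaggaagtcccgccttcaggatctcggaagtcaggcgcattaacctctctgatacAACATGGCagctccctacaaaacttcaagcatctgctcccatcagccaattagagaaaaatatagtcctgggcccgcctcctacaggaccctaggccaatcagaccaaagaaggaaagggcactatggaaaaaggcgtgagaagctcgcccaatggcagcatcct
Ndufb4, chr16:37654369-37654618: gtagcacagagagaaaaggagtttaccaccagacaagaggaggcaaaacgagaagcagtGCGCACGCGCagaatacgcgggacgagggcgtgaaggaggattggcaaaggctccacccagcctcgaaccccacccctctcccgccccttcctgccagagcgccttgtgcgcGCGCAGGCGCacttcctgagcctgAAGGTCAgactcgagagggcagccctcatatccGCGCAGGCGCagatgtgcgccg
Ndufs3, chr2:90904722-90904971: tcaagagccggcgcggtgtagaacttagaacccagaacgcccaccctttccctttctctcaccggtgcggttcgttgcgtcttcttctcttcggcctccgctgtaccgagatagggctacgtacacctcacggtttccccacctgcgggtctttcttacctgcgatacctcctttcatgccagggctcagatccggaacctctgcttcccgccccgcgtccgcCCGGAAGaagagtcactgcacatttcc
The capitals mark the GABP motif in Ndufaf1 and Ndufs3, the YY1 motif in Ndufs8, and 3 NRF1 motifs and 1 ERR motif in Ndufb4. A match describes these letters and is not evidence of a bound site.

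A feature that the choice of genes did not use lined up with the inguinal values: the length of the coding sequence. It was taken from the principal transcript of each gene, and counts per gene do not tell transcripts of different length apart. Across the 46 genes, Spearman's rho between coding length and the log2 fold change was 0.78, against 0.32 across 42 genes of complexes II to V and 0.08 across 13965 genes with an annotated length. These are descriptions across genes of the same libraries, chosen after the values were seen. Of the 14 members with over 600 coding bases, 10 rose, and the median log2 fold change was 0.36. Of the 32 shorter members, 2 rose (Ndufa6 and Ndufb4), and the median was 0.03. Among the called accessory subunits and assembly factors, Ndufv3, Ndufa9, Ndufa10, Ndufaf1 and Ndufaf7, like all 7 core subunits, have over 600 coding bases. In complexes II to V, 7 of 11 genes over 600 coding bases rose, against 6 of 31 shorter ones, of which 4 fell. Over all genes with a length, 17.6% of those over 600 coding bases and 9.73% of the shorter ones were called higher.

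The same balance can be read in each library as the mean log2 CPM of the 14 long members minus that of the 32 short ones. It was 0.743, 0.754 and 0.643 in inguinal knockout libraries, against 0.400, 0.392, 0.386 and 0.342 in inguinal wild-type libraries. In brown fat it was 0.670, 0.672, 0.578 and 0.562 in labelled knockout libraries, against 0.723, 0.619, 0.682 and 0.730 in wild-type libraries. The inguinal wild-type libraries were the lowest of the 15, and the inguinal knockout libraries lay within or just above the range of the 8 brown libraries. What sets this balance was not tested.

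**Figure D3:**
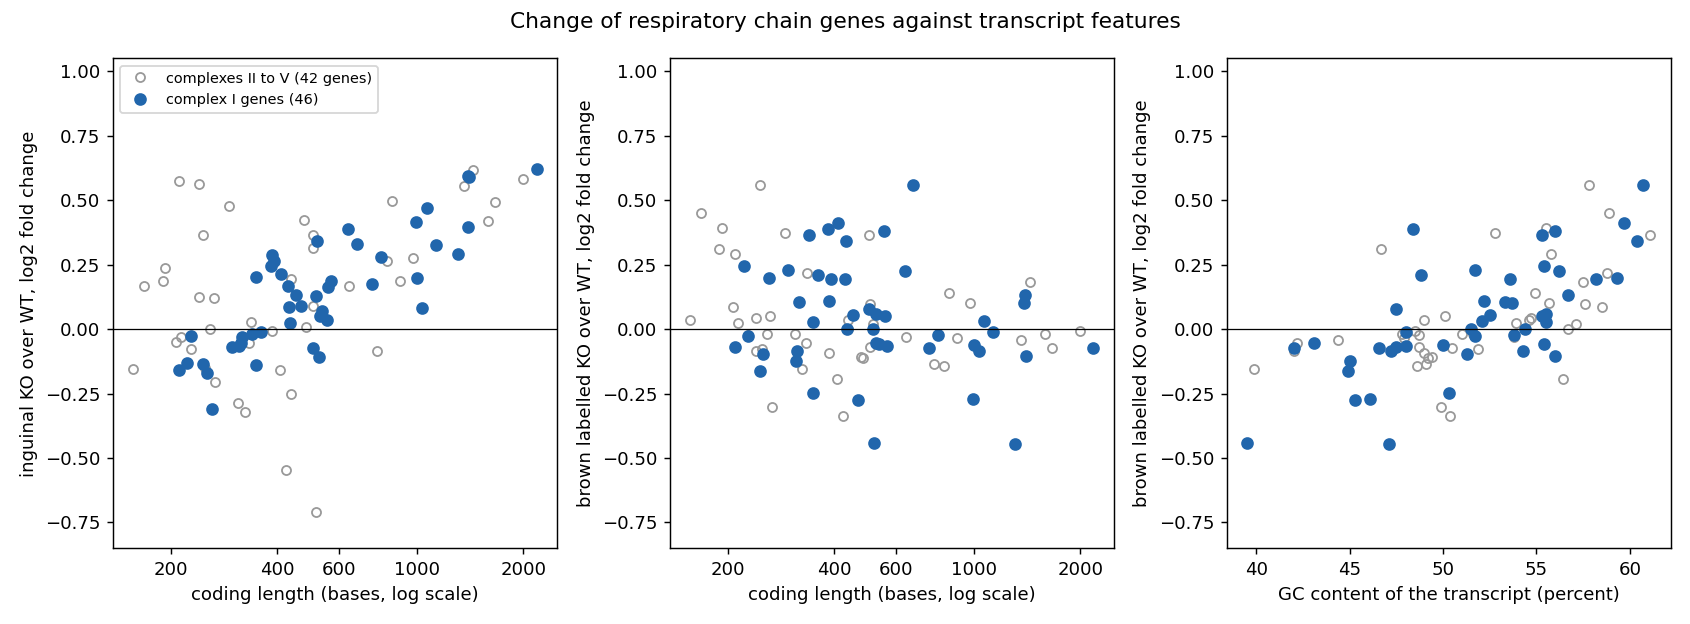
Log2 fold change of each complex I gene (filled) and of 42 genes of complexes II to V (open) against coding length on a log axis (left and middle) and GC content of the transcript (right). Complex I values climb with coding length in inguinal fat (rho 0.78) and with GC content in brown fat (rho 0.68), and not with coding length in brown fat (rho -0.16).

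In newborn brown fat, no complex I gene was called between labelled knockout and wild-type libraries by edgeR: 0 of 46 were called, against 0.26% of 15796 genes tested (0.184% higher and 0.076% lower). At an unadjusted p below 0.05 there were 5 higher and 4 lower members, and 18.5% of all genes reached that p. DESeq2 called 2 higher and 0 lower (6.53% of all genes), and limma-voom 3 higher and 4 lower (19.8%). The median log2 fold change of the members was 0.01, and the values ran from -0.44 for Ndufaf7 to 0.56 for Ndufs7. The groups did not overlap for 3 members higher and 1 lower, against 771 and 768 of all genes tested. Without brown labelled knockout replicate 1, the library that stood apart, 4 members were called, Ndufa7 (0.42) higher and Ndufaf7 (-0.64), Ndufaf4 (-0.56) and Ndufaf1 (-0.39) lower, while 18.1% of all genes were called. Of the 42 genes of complexes II to V, 0 were called by edgeR in brown fat, with 6 higher and 2 lower at an unadjusted p below 0.05, 0 and 1 by DESeq2, and 6 and 1 by limma-voom. The brown or beige adipocyte markers summed to between 3868 and 6873 CPM in labelled knockout libraries and between 5399 and 9697 CPM in wild-type libraries. The skeletal muscle markers summed to between 2421 and 4026 CPM in labelled knockout libraries and between 2323 and 4045 CPM in wild-type libraries. Their part in the complex I values was not tested.

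Ndufa7, an accessory subunit of the matrix arm, had the smallest p. It stood at 163, 176, 204 and 190 CPM in labelled knockout libraries, against 148, 155, 134 and 130 CPM in wild-type libraries. The groups did not overlap, and the log2 fold change was 0.37 ± 0.11 (SE, edgeR adjusted p = 0.136). Ndufaf4 had 47.5, 36.6, 36.5 and 33.1 CPM in labelled knockout libraries, against 52.3, 60.7, 50.1 and 44.8 CPM in wild-type libraries. The groups overlapped through labelled knockout replicate 1, and the log2 fold change was -0.44 ± 0.13 (SE, edgeR adjusted p = 0.145). Ndufs7 had 193, 124, 230 and 183 CPM in labelled knockout libraries, against 134, 134, 112 and 113 CPM in wild-type libraries. Labelled knockout replicate 2 fell into the wild-type range, and the log2 fold change was 0.56 ± 0.17 (SE, edgeR adjusted p = 0.149).

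The core subunits that rose in inguinal fat were not called in brown fat. Ndufv1 had 752, 923, 892 and 904 CPM in labelled knockout libraries, against 832, 763, 770 and 789 CPM in wild-type libraries, with overlapping groups and a log2 fold change of 0.13. Ndufs1 spread from 423 to 724 CPM in labelled knockout libraries and from 545 to 601 CPM in wild-type libraries, with a log2 fold change of -0.07. Its highest value came from labelled knockout replicate 1. Ndufa4 had 749, 902, 784 and 821 CPM in labelled knockout libraries, against 897, 982, 904 and 843 CPM in wild-type libraries, with overlapping groups and a log2 fold change of -0.16. Ndufa4l2 had 16.0, 9.62, 10.8 and 8.49 CPM in labelled knockout libraries, against 9.52, 9.07, 9.75 and 10.6 CPM in wild-type libraries, and its log2 fold change of 0.20 turned to -0.022 without labelled knockout replicate 1.

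In brown fat the values lined up with the GC content of the transcript, a feature also chosen after the values were seen, so the relation and the split by library drawn from it are descriptions with no test. Across the 46 members Spearman's rho between GC content and the log2 fold change was 0.68, against 0.60 across complexes II to V and 0.20 across 14050 genes. In inguinal fat the rho with GC content was 0.11 across the members. The mean log2 CPM of the 23 members of higher GC minus that of the 23 of lower GC was 0.106, 0.025, 0.250 and 0.176 in brown labelled knockout libraries, against -0.009, -0.086, -0.102 and -0.110 in brown wild-type libraries. All 4 labelled knockout libraries lay above all 4 wild-type libraries. The inguinal libraries averaged 0.0651 ± 0.112 in knockout (SD, n = 3) and 0.0074 ± 0.0702 in wild type (SD, n = 4). What sets this order was not tested.

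**Figure D4:**
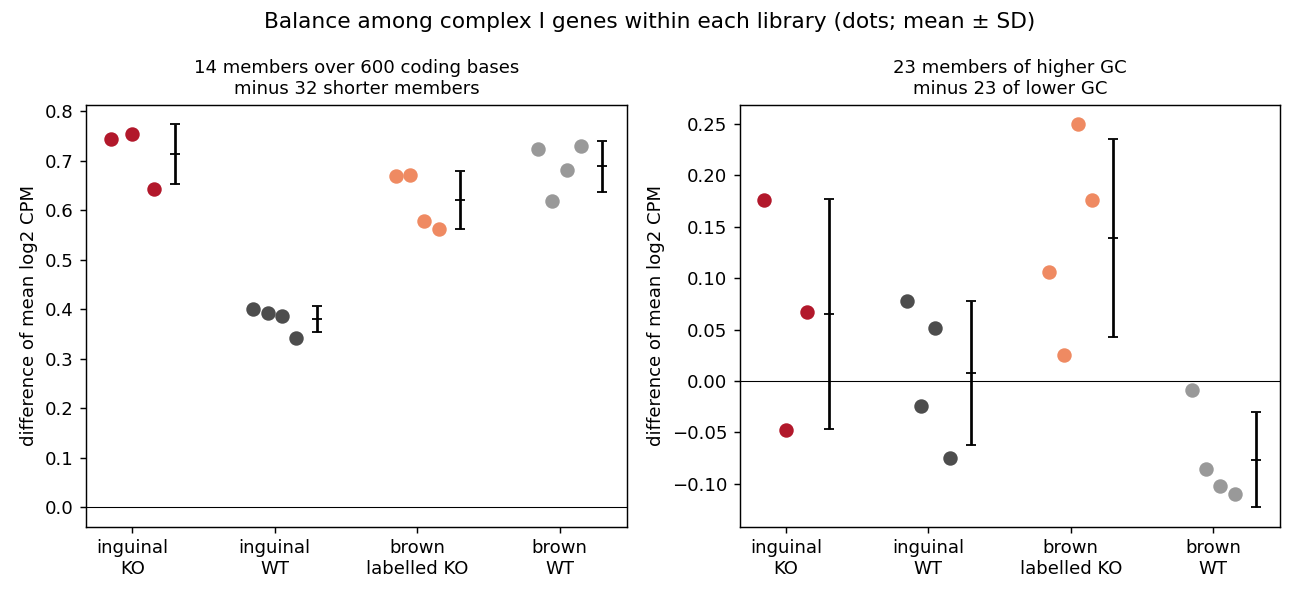
Differences between the mean log2 CPM of groups of complex I genes in each library (dots) with the group mean ± SD. Left, 14 members over 600 coding bases minus 32 shorter ones: inguinal wild-type libraries average 0.38 and inguinal knockout libraries 0.713. Right, 23 members of higher GC minus 23 of lower GC: brown labelled knockout libraries average 0.139 and brown wild-type libraries -0.0768.

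The inguinal comparison and the brown comparison of labelled knockout with wild-type libraries were then set against each other, as the inguinal log2 fold change minus the brown one in a fit of all 15 libraries. Depot, age and the uncertain label of the brown libraries cannot be told apart in this difference. The difference was positive and called for 5 of 46 members and negative and called for 0, against 9% of 16858 genes tested (4.8% positive and 4.2% negative). The share of members called, 10.9%, was thus close to the background. At an unadjusted p below 0.05, 10 members were positive and 1 negative, against 25.7% of all genes. DESeq2 gave 6 and 0 (13.8% of all genes), and limma-voom 7 and 1 (21.9%). The 5 were the core subunit Ndufs1 (0.67, adjusted p = 0.0374), the matrix arm subunit Ndufv3 (0.67, adjusted p = 0.0268), and the assembly factors Ndufaf1 (0.66, adjusted p = 0.0276), Ndufaf4 (0.77, adjusted p = 0.0339) and Ndufaf7 (0.71, adjusted p = 0.0417). For Ndufaf7 the brown values were 38.4, 22.2, 25.7 and 24.4 CPM in labelled knockout libraries, against 31.9, 36.6, 40.4 and 40.9 CPM in wild-type libraries, where labelled knockout replicate 1 fell into the wild-type range. For Ndufaf1 they were 46.2, 36.9, 32.5 and 33.2 CPM in labelled knockout libraries, against 36.8, 45.4, 48.7 and 47.3 CPM in wild-type libraries, again overlapping. Each assembly factor of the 5 had a positive log2 fold change in inguinal fat and a negative one in brown fat. These genes were picked by the test of that difference, so the opposite signs are no separate result. None of their brown values was called by edgeR, nor was the inguinal value of Ndufaf4.

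This count rests on few libraries. It fell to 0 without brown labelled knockout replicate 4, brown wild-type replicate 3, inguinal knockout replicate 3 or inguinal wild-type replicate 4. It was 1 without inguinal knockout replicate 2 or inguinal wild-type replicate 2 or 3, and 2 without brown labelled knockout replicate 2 or 3, brown wild-type replicate 4 or inguinal wild-type replicate 1. It was 3 without brown wild-type replicate 1, and between 4 and 7 without each of the 3 others. The calls over all genes moved too, but not always in step with those of the members. With all libraries 1517 of 16858 genes were called. Without inguinal knockout replicate 3 it was 632 of 17339, and without brown labelled knockout replicate 1, where 7 members were called, 3571 of 16808. Without brown labelled knockout replicate 3, where 2 members were called, it was 1367 of 16758. Without brown wild-type replicate 2, where 4 members were called, it rose to 1727 of 16807.

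In wild-type mice, complex I mRNA was lower in day 24 inguinal fat than in day 0.5 brown fat. Of the 46 genes, 31 were lower and 3 higher by edgeR, against 61.4% of 15979 genes called, 30.7% in each direction. The median log2 fold change was -0.43 for the members and -0.01 for all genes tested. The groups did not overlap for 29 members lower and 2 higher, against 4423 and 4573 of all genes tested. By the median the core fell furthest, with 6 of 7 subunits lower and a median of -0.78, followed by the matrix arm (9 of 10 lower, median -0.44) and the membrane arm (14 of 19 lower and 2 higher, median -0.43). Of the 8 assembly factors, Ndufaf6 fell, Ndufaf8 rose, and the median was 0.01.

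Ndufa10 showed the largest fall, with 395, 378, 400 and 349 CPM in inguinal libraries, against 892, 886, 820 and 773 CPM in brown libraries, a log2 fold change of -1.15 ± 0.08 (SE, edgeR adjusted p = 2.8e-07). Every inguinal library had less than every brown one. Ndufa9 followed with 335, 327, 329 and 313 CPM in inguinal libraries, against 687, 701, 643 and 634 CPM in brown libraries (-1.03). Ndufs3 had 166, 171, 169 and 159 CPM in inguinal libraries, against 342, 357, 318 and 310 CPM in brown libraries (-0.999). In the same direction and with groups apart were Ndufv1 (-0.92), Ndufb5 (-0.85) and Ndufb11 (-0.79). Ndufa4 also fell, with 592, 586, 602 and 591 CPM in inguinal libraries, against 897, 982, 904 and 843 CPM in brown libraries (-0.61), while Ndufa4l2 had a log2 fold change of -0.04 that was not called.

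The 3 exceptions all have fewer than 600 coding bases, which does not set them apart. Of the 32 members with up to 600 coding bases, 21 were lower. Ndufaf8, the partner of the assembly factor Ndufaf5, had 8.31, 6.19, 6.03 and 6.39 CPM in inguinal libraries, against 4.12, 5.01, 4.67 and 4.06 CPM in brown libraries, a log2 fold change of 0.59 (edgeR adjusted p = 0.00432). Ndufb7, a subunit on the intermembrane side of the membrane arm, had 131, 105, 111 and 108 CPM in inguinal libraries, against 96.5, 102, 80.0 and 78.5 CPM in brown libraries (0.35). Both genes had groups that did not overlap. Ndufa11, an integral subunit of the membrane arm, had 100, 81.5, 87.2 and 86.9 CPM in inguinal libraries, against 75.9, 83.0, 67.6 and 71.2 CPM in brown libraries, with overlapping groups and a log2 fold change of 0.26. Ndufa11 lost its call without brown wild-type replicate 3 or 4 or inguinal wild-type replicate 1 (edgeR adjusted p up to 0.0676) and in a fit of all 4 groups (0.0836). Ndufaf8 lost its call in that fit too (0.0686), and Ndufb7 was called under every setting tried.

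The fall was of the same order in the rest of the chain, where 34 of 42 genes of complexes II to V were lower in inguinal fat and 4 higher. The 12 skeletal muscle markers summed to between 138 and 377 CPM in inguinal wild-type libraries and between 2323 and 4045 CPM in brown wild-type libraries. Of them 10 were called lower in inguinal fat and 2 higher. The 8 brown or beige adipocyte markers summed to between 1352 and 2080 CPM in inguinal and between 5399 and 9697 CPM in brown wild-type libraries, with 5 called lower and 0 higher. Cox8b is both in this list and in complex IV. Other lists differed too. Higher in inguinal fat were 5 of 6 general adipocyte, 6 of 6 B cell and 4 of 5 T cell markers. So were 4 of 4 proliferation, 3 of 4 progenitor and 2 of 4 macrophage markers. Lower were 4 of 4 endothelial and 1 of 4 erythroid markers. Muscle is itself rich in complex I, and the part of any of these cell types in the depot values was not tested. The inguinal knockout and the depot comparisons share the inguinal wild-type libraries, so their values are not independent of each other.

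Some members overlap other genes. Smim27 overlaps 39% of the exon bases of Ndufb6 on the opposite strand, Tssk6 overlaps 30% of those of Ndufa13, Rbm10 12.9% of those of Ndufb11 and Mrpl47 12.3% of those of Ndufb5. The libraries were prepared with a stranded kit, per the labels. Whether the counting used strand was not stated in the sources read, so reads of these pairs may be shared.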

How the data were processed

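Poly(A)-selected, strand-marking libraries of total RNA were sequenced, per the labels' protocols. The authors deposited 1 table of raw counts per Ensembl gene for all 15 libraries. Per the submitters' processing notes the tools were TopHat2 2.1.0, featureCounts of the Subread package and edgeR, with the mouse build mm9 and settings not given in the sources used here. The count table has no row without a gene identifier, and every count column was used. Symbols came from a table of mouse gene names, roles and gene lists were written by hand, and transcript length, coding length and GC content came from the principal transcript of a GENCODE annotation of GRCm38, whose coordinates differ from those of mm9. Per-kilobase levels therefore rest on a later annotation than the counts.

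Each comparison had its own fit with edgeR 4.0.16 in R 4.3.3 (TMM scaling, genes with a minimum count of 10 kept by filterByExpr, robust quasi-likelihood F-test, Benjamini-Hochberg adjustment over all genes tested, threshold 0.05), and the fits were tested on simulated counts. The difference between the inguinal and brown comparisons was an interaction contrast over all libraries. Alternatives used DESeq2 1.42.0, limma 3.58.1, other scalings and filters, a replicate block and each library left out in turn. Replicate numbers recur across groups, but nothing in the labels and no consistent correlation in the data pairs the libraries by number, so the fits have no block. Per-library values are given for called members (at most 5 per direction by size and 5 by p), for the 3 members of smallest p where none was called, and for Ndufa4 and Ndufa4l2. A gene picked this way in any comparison could be shown in the others too, and Ndufb11 in inguinal fat was chosen so as an example. Ndufv2 is given by its log2 fold change only. The members, lists and comparisons were chosen with earlier results of these data known. Of 143 list entries, 142 matched a row. The values of 1 member are not reported here, though it is part of the counts and medians.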

Additional observations from a re-analysis of the deposited data

Results flagged for a closer look

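In a search of groups of 4 libraries for 1 value far from the rest, Ndufaf8 in inguinal wild-type fat was marked by replicate 1 at 8.31 CPM, against 6.03 to 6.39 CPM in the other 3. Ndufv3 in brown labelled knockout fat was marked by replicate 1 at 318 CPM, against 263 to 265 CPM in the other 3. With 63 groups searched, chance marks about 1 in 20.

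The log2 fold change of knockout over wild type in day 24 inguinal fat differed from that of labelled knockout over wild type in day 0.5 brown fat, by the interaction test in edgeR, for Ndufs1 (inguinal minus brown log2 fold change 0.67), Ndufv3 (0.67), Ndufaf7 (0.71), Ndufaf4 (0.77) and Ndufaf1 (0.66). Il33 did not differ past the threshold in the brown comparison (edgeR adjusted p = 0.229), and depot and age differ together.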

How the results depend on the processing

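The count of complex I genes called in inguinal fat was 8 to 14 under the 10 other settings and 8 to 13 without single libraries. All were higher, except the 2 lower without knockout replicate 2. The calls over all genes varied too. They ran from 2249 of 16858 in a fit of all 4 groups to 4847 of 15710 by DESeq2, and from 3274 to 4719 without single libraries. Upper-quartile scaling, with 8 members called, moved the split over all genes to 1899 higher and 2657 lower, against 2410 and 2088. In brown fat the count of 0 became 2 by DESeq2, 7 by limma-voom and 2 in a fit of all 4 groups, and 0 to 4 without single libraries. Over all genes the 41 calls became 1032 by DESeq2, 3127 by limma-voom and 1151 of 16858 in the fit of all 4 groups. Without single libraries they ran from 2 to 2905. The cause was not tested. The direction of Ndufa4l2 in brown fat reversed by limma-voom (-0.050), and its value ran from -0.022 without labelled knockout replicate 1 to 0.31 without replicate 4. The count of 5 for the difference between the inguinal and brown comparisons became 3 under upper-quartile scaling, 8 by limma-voom and 1 with a replicate block, and 0 to 7 without single libraries. Over all genes the 1517 calls became 1452, 3696 and 859 under those settings, and 632 to 3571 without single libraries. The wild-type depot count of 34 was 30 to 35 without single libraries, where 9106 to 9950 of all genes were called. With the replicate block 9 members were called in inguinal fat and 0 in brown fat, beside 3990 of 15710 and 7 of 15796 genes. The pairs' correlations of deviations ran from -0.126 to 0.199. The rho of 0.78 with coding length stayed between 0.73 and 0.80, and the rho of 0.68 with GC content between 0.59 and 0.70. The summed share of counts in inguinal knockout and wild-type libraries was 0.922% and 0.867% without 4 pseudogenes that resemble mitochondrial genes, of which Gm13340 alone took 6.41% of counts on average. With 3 or 4 libraries a group, small changes can be missed.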
